A study of Rattus norvegicus with 65 samples.

Results

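The S100 genes encode small calcium-binding proteins, each with a pair of EF-hand motifs, that act mostly as dimers inside the cell and, when released, on receptors such as the receptor for advanced glycation end products (Ager) and Toll-like receptor 4 (Tlr4). S100A8 and S100A9 form the heterodimer calprotectin, which is abundant in neutrophils and monocytes and can be induced in inflamed epithelium. S100A4 is known from fibroblasts, macrophages and motile tumor cells, where it binds non-muscle myosin, and S100A10 is the partner of annexin A2 at the plasma membrane. The 7 genes described here are S100a4, S100a6, S100a8, S100a9, S100a10, S100a11 and S100b, out of 10411 genes with a named probe set. They were chosen as a family from the measured differences between transplanted and primary tumors in these same arrays, so those differences are given as a description and carry no test. Each of the 7 was read by 1 probe set, and 6 passed the filter on dim probe sets that left 8499 genes for testing. The exception was S100a8, whose fits come from the same model without that filter.

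The study followed rat mammary tumors first induced by a carcinogen and then passed serially through syngeneic hosts, so every tumor other than the first of a line grew from a graft. The 65 arrays hold 11 tumors each of transplants 1, 2, 3 and 4, 10 of transplant 5 and 11 primary tumors. They form 11 lines of descent called series. The labels give 25L and 25R as left and right of the same numbered series, and not whether both came from 1 animal. They are counted here as separate lines. Each generation of a series is 1 array of whole frozen tumor, with no replicate within a line, and the carcinogen, rat strain and age are not given in the sources used here. The labels give no invasive or metastatic score per tumor, and series 10 is followed here to transplant 4. In such bulk tissue fewer cells of a type and less RNA per cell cannot be told apart. Values are log2 intensities after scaling of all arrays to 1 median, with a floor at 5.31, the level below which intensities were not distinguished. A step of 1 is a 2-fold change in intensity, and levels of different genes are not compared, since probe sets differ in brightness.

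Before scaling, array medians ran from 96.1 to 176, and the dimmest array was transplant 5 of series 32, with the next lowest at 143. The primary tumor of series 36 stood apart by its inflammatory genes (below), and results that rest on it are given with and without it. The epithelial marker Epcam checked the tissue label: it was at 10.89 or more in 10 of 11 primary tumors, whereas in series 42 it read 5.31 at transplant 5 and 6.00 in the primary tumor. The tumors of that line were thus at or near the floor for a defining epithelial marker from the start.

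Of the 7 members, 6 lie on rat chromosome 2 (assembly GRCr8) and S100b on chromosome 20 from 12372345 to 12381159. S100a4 (178388529 to 178390838) and S100a6 (178398189 to 178399763) are neighbours 7.35 kb apart, and S100a8 (178464095 to 178465223) and S100a9 (178487941 to 178490622) are 22.7 kb apart. S100a11 (181875132 to 181880542) and S100a10 (181904454 to 181913101) form a separate pair 23.9 kb apart. The promoter windows of 3 members are printed because these genes, close together on 1 chromosome, had the contrasting patterns described next. Each window holds 250 bases before and 50 after the annotated start in RefSeq, 5′ to 3′ on the gene's strand, and capitals mark a match to a searched motif. For S100a6 the start used by that table lies inside the gene span given above, so its whole window does too.
S100a4, chr2:178388279-178388578, plus strand: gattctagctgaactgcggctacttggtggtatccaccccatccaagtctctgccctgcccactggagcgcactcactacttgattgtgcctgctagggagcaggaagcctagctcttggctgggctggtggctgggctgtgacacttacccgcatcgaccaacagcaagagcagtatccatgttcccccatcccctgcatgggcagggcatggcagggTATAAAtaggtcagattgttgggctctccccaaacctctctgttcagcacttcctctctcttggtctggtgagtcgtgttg
S100a6, chr2:178398287-178398586, plus strand: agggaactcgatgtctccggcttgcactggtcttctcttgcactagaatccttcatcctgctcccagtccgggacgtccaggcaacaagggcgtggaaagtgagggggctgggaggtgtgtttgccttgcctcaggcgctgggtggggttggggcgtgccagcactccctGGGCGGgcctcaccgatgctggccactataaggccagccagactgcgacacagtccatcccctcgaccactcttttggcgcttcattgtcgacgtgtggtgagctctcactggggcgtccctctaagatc
S100a9, chr2:178490573-178490872, minus strand: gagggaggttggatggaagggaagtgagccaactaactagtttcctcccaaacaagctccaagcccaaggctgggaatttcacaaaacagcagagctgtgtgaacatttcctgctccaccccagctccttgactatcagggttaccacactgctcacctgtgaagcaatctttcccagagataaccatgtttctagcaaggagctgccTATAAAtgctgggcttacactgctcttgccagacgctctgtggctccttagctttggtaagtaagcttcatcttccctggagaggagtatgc
Of the 7 members 5 have such a window in the table used, and both strands were searched for TATAAA (the TATA box), CCAAT (the CCAAT box), GGGCGG (the GC box), TGANTCA (the AP-1 motif) and TTGCNNAA (the C/EBP motif), which do not overlap in these windows. The TATA box occurred in the S100a4 and S100a9 windows and is held by 14.2% of 33469 promoters of the same length. The GC box occurred in the S100a6 window and is held by 33.1% of them. The other letters searched were not in these 3 windows, against shares over all promoters of 37.5% for the CCAAT box, 7.33% for the AP-1 motif and 10.6% for the C/EBP motif. A match is a description of the letters and not evidence of a bound factor.

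S100a4 was higher in the late transplants than in the primary tumors of the same lines, but from very unequal starting levels. At transplant 5 its log2 intensity was 8.50 in series 19, 9.36 in 25R, 9.41 in 33 and 9.79 in 13, then 11.42 in 17, 11.50 in 25L, 12.15 in 36, 12.25 in 32, 12.76 in 42 and 13.01 in 34. The primary tumors were at 7.65 in series 19, 6.98 in 25R, 7.32 in 33, 7.41 in 13, 7.89 in 17, 8.92 in 25L, 8.24 in 36, 6.88 in 32, 12.54 in 42, 8.35 in 34 and 10.84 in 10. Every transplant 5 tumor was thus above the primary tumor of its own line, 10 of 10. The 2 groups overlapped, since the primary tumors of series 42, 10 and 25L were above the lowest transplant 5 tumor, at 8.50. The fitted difference was 2.41 ± 0.52 (SE) at transplant 5, or 5.33-fold, against 0.69 at transplant 1, 0.62 at transplant 2, 1.02 at transplant 3 and 1.62 at transplant 4. Over all transplants it was 1.27 ± 0.40 (SE), with 9 of 11 lines higher.

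**Figure D1:**
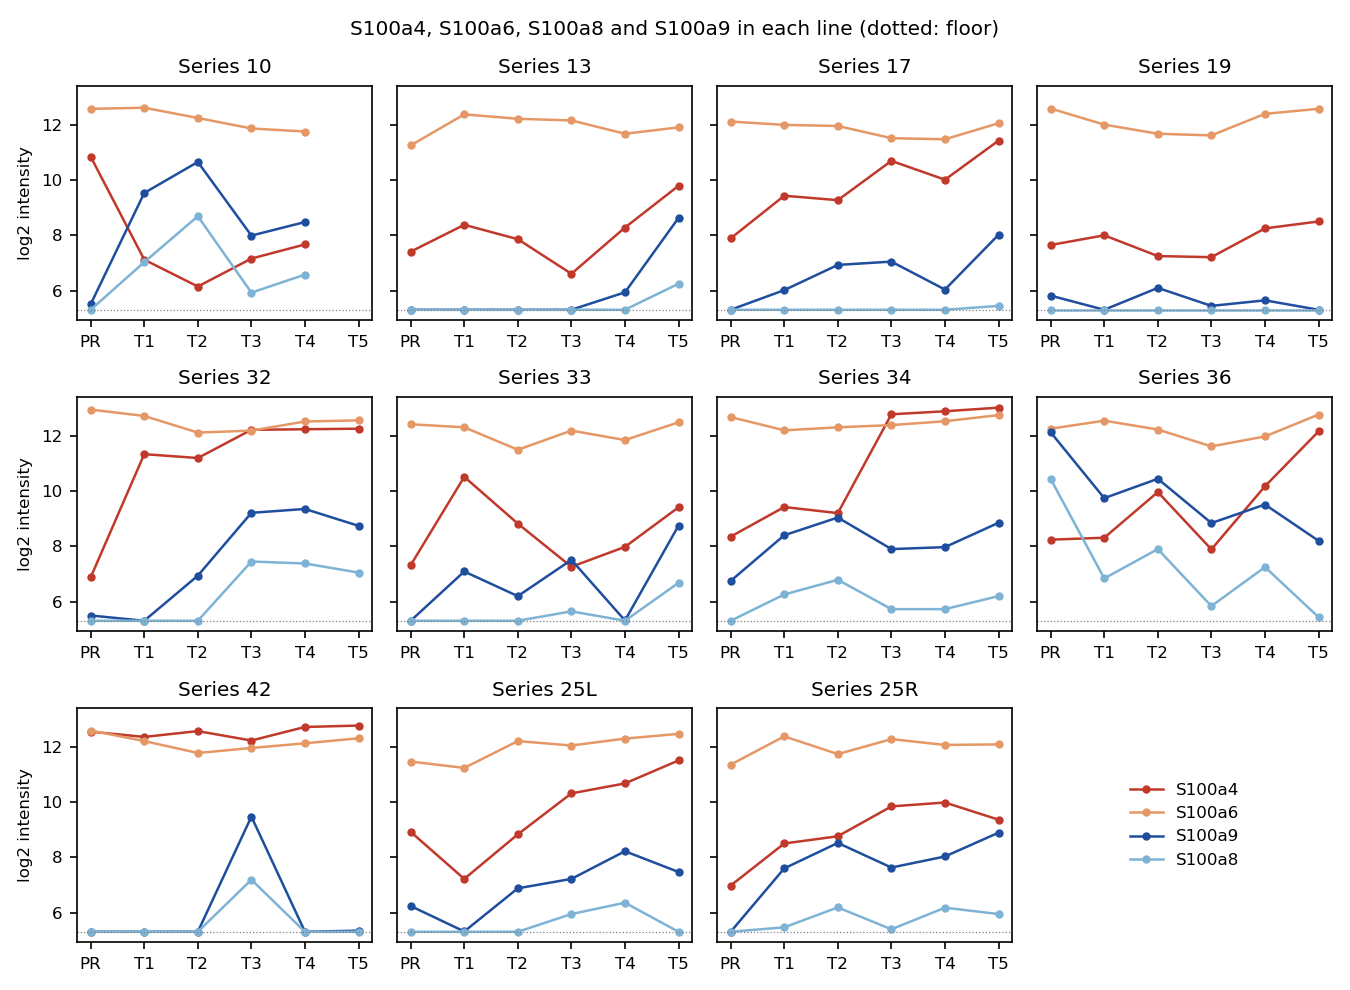
Log2 intensity (vertical axis) of S100a4, S100a6, S100a9 and S100a8 in each of the 11 series, by generation from the primary tumor (PR) to transplant 5 (T5) on the horizontal axis, 1 point per array, with the floor of 5.31 dotted. S100a4 spans 6.15 to 13.01 while S100a6 stays between 11.23 and 12.94, and S100a8 follows S100a9 at a lower reading.

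The lines differed in when S100a4 was higher and by how much. In series 32 the level was already 11.33 at transplant 1 and 11.19 at transplant 2, then 12.21, 12.23 and 12.25, against 6.88 in its primary tumor. In series 34 transplants 1 and 2 were at 9.42 and 9.20 and transplants 3, 4 and 5 at 12.77, 12.88 and 13.01. In series 36 the values from transplant 1 to transplant 5 were 8.31, 9.96, 7.89, 10.17 and 12.15, so the highest reading came last. Series 42 kept a high level throughout, from 12.22 to 12.76. Series 10 ran the other way, with 7.12, 6.15, 7.16 and 7.67 in its 4 transplants and 10.84 in its primary tumor. Leaving out series 32 lowered the difference over all transplants to 0.90 and that at transplant 5 to 2.12, and leaving out series 10 raised them to 1.73 and 2.80.

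Within the transplants, a slope over transplants 1 to 4 was tested because it uses neither primary nor transplant 5 arrays. S100a4 had a slope of 0.32 ± 0.13 (SE) per transplant, upward in 9 of 11 lines, with a 95% interval of 0.06 to 0.58. It did not pass over all genes (limma adjusted p = 0.194, unadjusted p = 0.0176). No member passed: 0 of 6 had an adjusted p under 0.05 and 1 of 6, S100a4, an unadjusted p under 0.05. Over all genes 0.165% were called (14 of 8499, with 0.0235% upward and 0.141% downward) and 1358 of 8499 had an unadjusted p under 0.05. Without series 33, where S100a4 read 10.51, 8.82, 7.26 and 7.98 from transplant 1 to transplant 4, its slope was 0.44 (limma adjusted p = 0.0355). As single series were left out, the slope went down to 0.21, without series 34, and the limma adjusted p up to 0.565. Array weights gave a slope of 0.205. With transplant 5 included the slope was 0.42 (limma adjusted p = 0.0104), but those arrays were part of the contrast that brought the gene up.

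**Figure D2:**
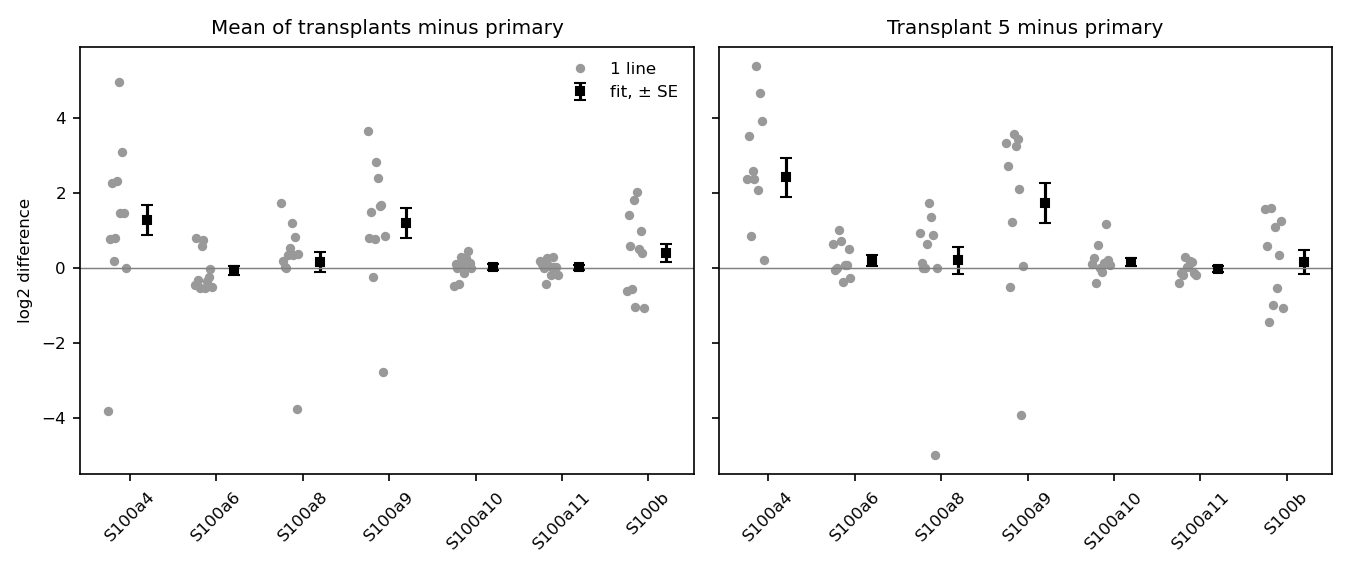
Log2 difference from the primary tumor of the same line (vertical axis) for each of the 7 genes (horizontal axis), for the mean of the transplants (left) and for transplant 5 (right). Grey points are single lines and black squares the fitted difference ± SE; S100a4 at 2.41 and S100a9 at 1.73 stand above 0 at transplant 5, while S100a6, S100a10 and S100a11 lie close to it.

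The course of S100a4 along single lines was set beside 2 kinds of marker, and neither followed it at every step. Epcam, an adhesion molecule of epithelial cells, read 11.62, 11.56, 9.17, 7.70 and 5.58 from transplant 1 to transplant 5 of series 32, against 11.91 in its primary tumor. S100a4 had therefore reached 11.33 in that line while Epcam still read 11.62. The mean of 26 fibroblast matrix genes, such as collagens, moved with the early step: it was 9.87 at transplant 1 of series 32, against 7.06 in the primary tumor. In series 34 Epcam was at 11.74 and 11.62 in transplants 1 and 2 and at 6.52, 5.83 and 5.31 in transplants 3 to 5, so its loss fell on the same step as the S100a4 gain. The fibroblast mean there was 9.12 and 9.07 at transplants 1 and 2, and 10.52, 10.42 and 9.36 at transplants 3 to 5. At transplant 5 it was thus back near its early level, while S100a4 was at its highest, 13.01. In series 10 the fibroblast mean was 10.78 in the primary tumor with its high S100a4. From transplant 1 to transplant 4 it was 7.40, 6.69, 8.43 and 8.53, while S100a4 read 7.12, 6.15, 7.16 and 7.67. Col1a2, a fibrillar collagen chain, read 8.65 and 6.93 in transplants 1 and 2, against 12.89 in the primary tumor. In transplants 3 and 4 Col1a2 was back at 10.87 or more, without a like return of S100a4. Series 42 combined a high S100a4 with fibroblast means of 7.77 to 9.11 and Epcam at or near the floor, while Col1a2 read 11.65 to 12.34 in its transplants and 12.40 in its primary tumor. What part these markers have in the S100a4 values was not tested.

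**Figure D3:**
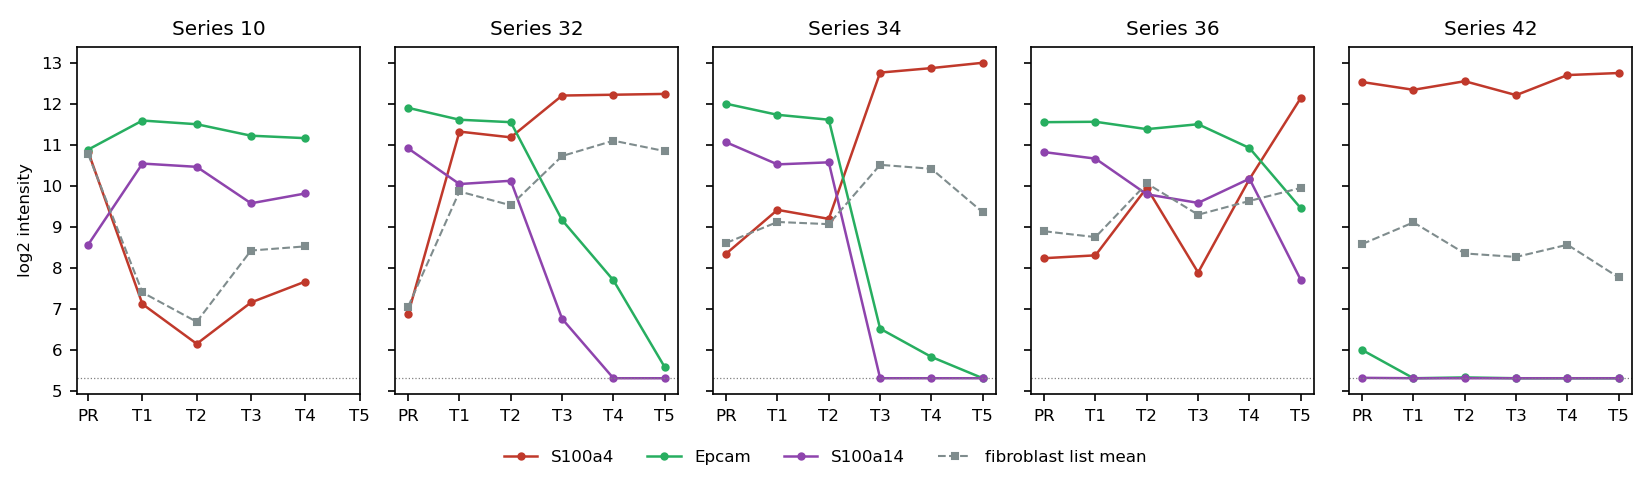
Log2 intensity of S100a4, Epcam and S100a14, and the mean log2 intensity of the fibroblast matrix list (dashed), on the vertical axis by generation (horizontal axis) in 5 of the 11 series, with 1 point per array and the floor dotted. S100a4 is high with Epcam still present at transplants 1 and 2 of series 32, high after Epcam is lost in series 34, and high with fibroblast means of 7.77 to 9.11 in series 42.

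Over the 65 arrays, which share lines and are not independent, the genes most like S100a4 were Lgals1 (Pearson r = 0.94), Emp3 (0.93), Rab31 (0.90), Oaf (0.89) and Emp1 (0.89). Lgals1 encodes galectin-1, a sugar-binding lectin of mesenchymal cells, Emp3 and Emp1 are related membrane proteins, and Rab31 is a vesicle traffic GTPase. The likeness did not rest on the means of lines and generations: after both were removed, r was 0.87, 0.86, 0.78, 0.81 and 0.85 in the same order. Without series 42 the 5 values were 0.92, 0.91, 0.87, 0.89 and 0.91.

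The lists of cell type markers separated S100a4 from S100a9. With S100a4, 16 of 18 tested mesenchymal genes had a positive r, with a median of 0.73, including Vim (0.86), the intermediate filament vimentin, and the receptor Axl (0.81). This list holds Lgals1 and Emp3, named above as most like S100a4, and it was chosen with earlier results of these data known. The median was 0.69 for 15 genes of monocytes and macrophages and 0.55 for 25 fibroblast matrix genes, against 0.06 over all 8499 genes. Of 18 luminal epithelial and junction genes none had a positive r, with a median of -0.76 and the lowest values for Cldn3 (-0.83) and Cldn7 (-0.81), both claudins of tight junctions. With S100a9 the medians were 0.24, 0.22, 0.25 and -0.03 for these 4 lists, against 0.00 over all genes. Mesenchymal, macrophage and fibroblast genes thus all varied with S100a4, and the arrays do not say which cells carried it. After line and generation means were removed, the mesenchymal list mean had r = 0.84 with S100a4, the fibroblast mean 0.81, the macrophage mean 0.57 and the luminal mean -0.56.

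**Figure D4:**
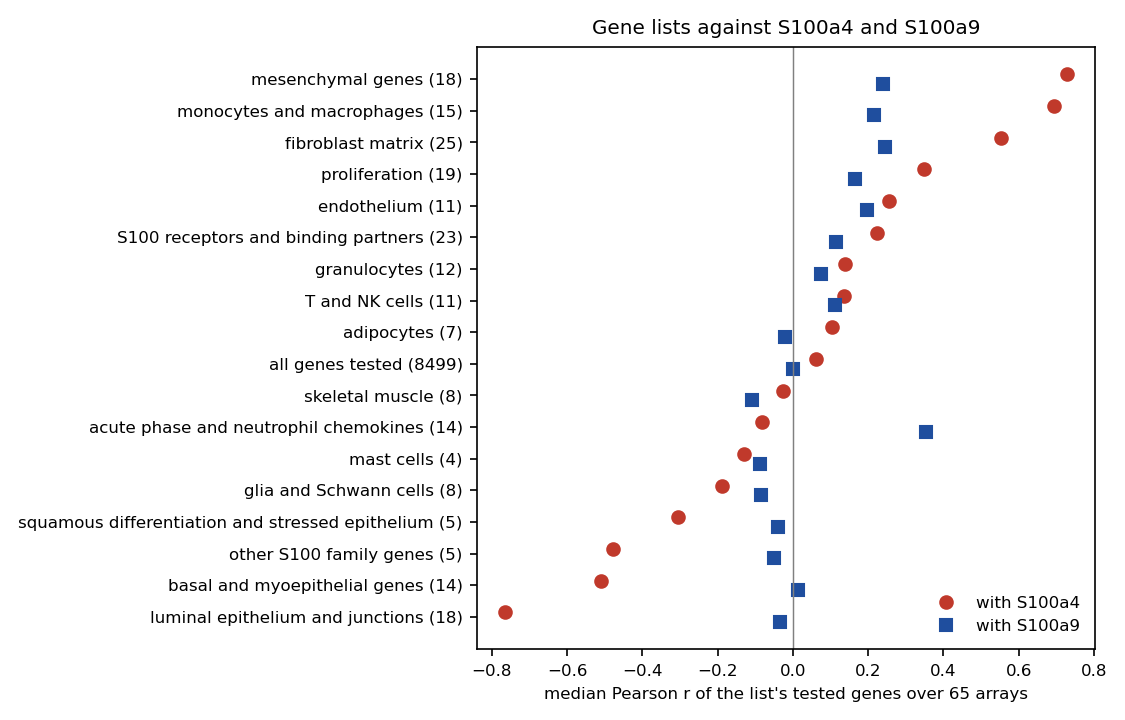
Median Pearson r over 65 arrays (horizontal axis) of each list's tested genes (number in brackets) with S100a4 (circles) and with S100a9 (squares). Mesenchymal genes reach 0.73 and luminal genes -0.76 with S100a4, while the acute phase list is the highest for S100a9, at 0.35.

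S100a6, calcyclin, is a cytosolic S100 protein that binds Cacybp and several annexins, and it is often named beside S100a4 as a mesenchymal gene. In these tumors it followed S100a4 only weakly. All 65 readings lay between 11.23 and 12.94, with a median of 12.47 in transplant 5 tumors (11.90 to 12.76) and of 12.41 in primary tumors (11.25 to 12.94), so the groups overlapped. The difference was 0.20 ± 0.15 (SE) at transplant 5 and -0.07 ± 0.11 over all transplants, where 3 lines were higher and 8 lower. Pearson r with S100a4 was 0.29, and 0.20 after line and generation means were removed. The mean of the mesenchymal list had r = 0.31 with S100a6, against 0.88 with S100a4, so S100a6 is described here by its own values and not as a mesenchymal gene. This difference in r was not tested. The slope over transplants 1 to 4 was -0.05 ± 0.04 (SE), with a 95% interval of -0.14 to 0.03 (limma adjusted p = 0.589).

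The genes most like S100a6 were Cttn (0.64), which encodes the actin-binding cortactin, Srpra (0.62), a subunit of the signal recognition particle receptor, Glg1 (0.58), a Golgi glycoprotein, Por (0.56), the cytochrome P450 reductase, and Gsto1 (0.56), a glutathione transferase. With line and generation means removed, r was 0.48, 0.67, 0.57, 0.62 and 0.46.

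S100a9 was higher in most late transplants than in the primary tumors, and S100a8 was read above the floor only in arrays where S100a9 was too. S100a9 read 8.89 in series 25R, 8.85 in 34, 8.75 in 33, 8.74 in 32, 8.63 in 13, 8.20 in 36, 8.02 in 17 and 7.47 in 25L at transplant 5, but 5.35 in series 42 and 5.31 in 19. Of the 11 primary tumors 5 were at the floor, 5 lay between 5.50 and 6.75, and series 36 stood alone at 12.12. The groups overlapped through that 1 primary tumor and through the 2 transplants near the floor. The fitted difference was 1.73 ± 0.52 (SE) at transplant 5 and 1.19 ± 0.39 over all transplants, with 8 of 10 and 9 of 11 lines higher. Without the primary tumor of series 36 these differences were 2.13 and 1.59. The log2 ratio of the Gapdh 3' and 5' probe sets, a sign of RNA quality, had a median of 0.15 at transplant 5 and 0.05 in primary tumors and r = 0.35 with S100a9 (0.28 with S100a4). With it as a covariate the transplant 5 differences were 1.54 for S100a9 and 2.29 for S100a4. In the 5 lines whose primary tumor was at the floor, the line's own S100a9 difference at transplant 5 is a lower bound.

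The lines differed in when S100a9 appeared. Series 10 had 9.53, 10.65, 7.99 and 8.48 in its 4 transplants, against 5.51 in the primary tumor, the reverse of its S100a4 pattern. Series 32 was at the floor at transplant 1, at 6.94 at transplant 2 and at 9.21, 9.35 and 8.74 thereafter, so S100a9 came after S100a4 in that line. Series 13 stayed at the floor through transplant 3 and read 5.94 and 8.63 at transplants 4 and 5. In series 42 a single tumor, transplant 3, read 9.47 while the other 5 were between 5.31 and 5.35. Series 19 never passed 6.10. The slope of S100a9 over transplants 1 to 4 was 0.14 ± 0.14 (SE), with a 95% interval of -0.14 to 0.43 (limma adjusted p = 0.668).

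S100a8 was above the floor in 30 of 65 arrays and never where S100a9 was at it. Both were at the floor in 13 arrays, S100a9 alone was above it in 22, and S100a8 alone in 0. The highest S100a8 reading was 10.43, in the primary tumor of series 36, followed by 8.69 at transplant 2 of series 10 and 7.90 at transplant 2 of series 36. The other 10 primary tumors were at the floor, as were all 6 arrays of series 19. The lone S100a9 tumor of series 42, transplant 3, also carried S100a8 at 7.19. Pearson r between the 2 genes was 0.86 (Spearman rho 0.91), 0.87 with line and generation means removed and 0.85 without the primary tumor of series 36. It was positive in 10 of 10 lines with any S100a8 reading above the floor. In series 13, 17 and 42, however, S100a8 was at the floor in 5 of 6 arrays, so r in each of these lines rests on 1 array. The difference from primary tumors was 0.20 ± 0.37 (SE) at transplant 5 and 0.16 ± 0.28 over all transplants, and 0.60 and 0.55 without the primary tumor of series 36. With S100a4, r was 0.01 for S100a8 and 0.13 for S100a9, and 0.07 and 0.30 without series 42.

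**Figure D5:**
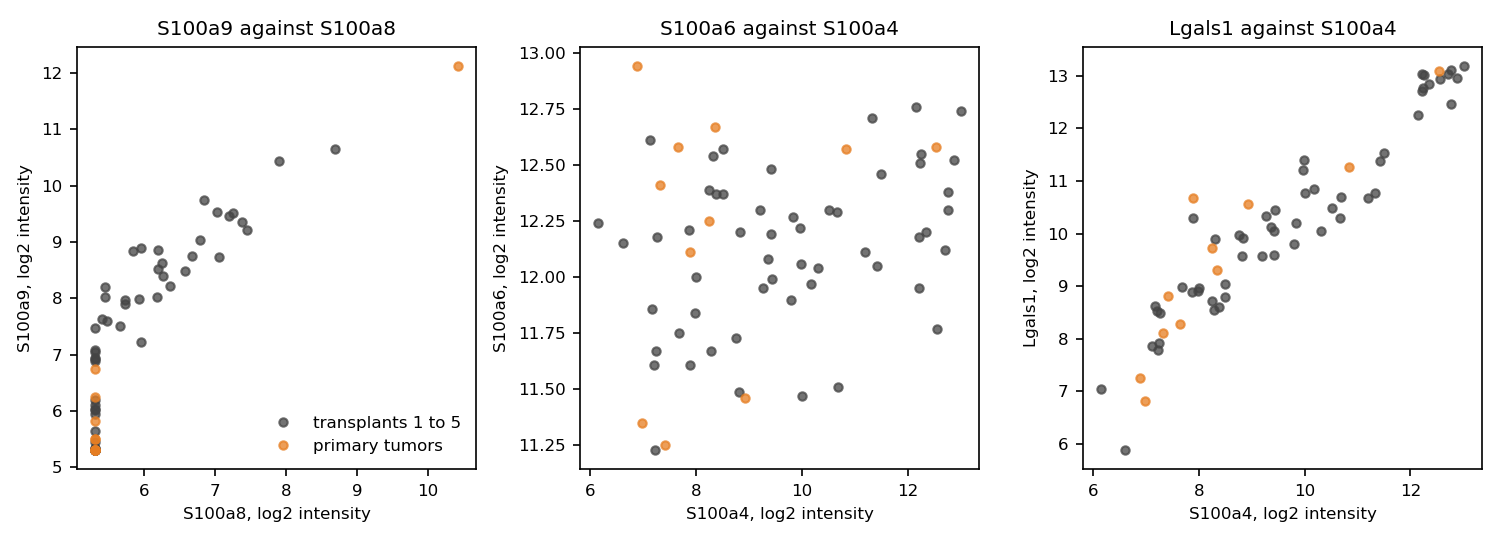
Log2 intensity of S100a9 against S100a8 (left), S100a6 against S100a4 (middle) and Lgals1 against S100a4 (right), 1 point per array, with the 54 transplants in grey and the 11 primary tumors in orange. The first and last pairs lie along a line (r = 0.86 and 0.94) and the middle pair does not (r = 0.29); the orange point at the top right of the left panel is the primary tumor of series 36.

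The genes most like S100a8, after S100a9, were Il1b (r = 0.83), Sod2 (0.68), Cxcl2 (0.62) and Hp (0.62), and those most like S100a9 were Il1b (0.77), Cxcl2 (0.66), Sod2 (0.65), Ifit3 (0.62) and Degs1 (0.61). Il1b encodes the inflammatory cytokine interleukin-1 beta, Cxcl2 a chemokine that attracts neutrophils, Sod2 the mitochondrial superoxide dismutase, Hp haptoglobin, Ifit3 an interferon-induced protein and Degs1 an enzyme of ceramide synthesis. The primary tumor of series 36 carried much of this for S100a8: without it r was 0.74 for Il1b, 0.57 for Sod2, 0.43 for Cxcl2 and 0.39 for Hp. For S100a9 it was 0.75 for Il1b and 0.59 for Cxcl2 without that tumor. In the transplants of series 36 Il1b read 7.63 to 8.34, Cxcl1 5.89 to 8.61 and Mmp9 5.31 to 9.51, against 10.87, 11.08 and 8.69 in the primary tumor. At transplant 3 of series 42 Il1b was 9.08, against 7.07 to 7.73 in the other transplants of the line and 6.44 in its primary tumor.

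Granulocyte genes other than the 2 members gave a weaker tie. The granulocyte list had 38 genes, of which 19 had a named probe set and 12 passed the filter, and several defining neutrophil granule genes, such as Mpo and Elane, were not analysed here. The median r of the 12 was 0.10 with S100a8 and 0.08 with S100a9, with Il1r2 (0.56 with S100a8 and 0.51 with S100a9), a decoy receptor for interleukin-1, and Mmp9 (0.52 with each, below the filter) among the highest. The mean of all 19 had r = 0.61 with S100a8 and 0.51 with S100a9, and 0.45 and 0.41 without the primary tumor of series 36. Its range was 6.70 to 7.03 in transplant 5 tumors and 6.64 to 7.62 in primary tumors, the highest being series 36. The summed intensity of the 19 genes was 2560 to 9640 in transplant 5 tumors and 3406 to 14325 in primary tumors. Lcn2, a bright gene of this list, read 5.31 to 12.85 and 8.77 to 13.41 in these 2 groups. The sum is therefore not a measure of granulocytes alone. The acute phase and chemokine list tied more closely, with a list mean at r = 0.78 for S100a8 and 0.74 for S100a9, and 0.64 and 0.73 without that tumor. Lcn2, a protein of both neutrophils and epithelium, did not follow the pair (r = 0.05 and 0.08). The label of S100a8 and S100a9 as granulocyte genes thus rests here on few markers, and which cells held the transcripts was not tested.

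S100a10 and S100a11 were bright and, on average over the lines, steady in time, but they differed between lines. S100a10 forms a heterotetramer with annexin A2 that binds plasminogen and tissue plasminogen activator at the cell surface. It averaged 11.26 ± 0.65 (SD, n = 10 tumors) at transplant 5 and 11.07 ± 0.39 (SD, n = 11) in primary tumors, with a difference of 0.17 ± 0.11 (SE) and, over all transplants, 0.03 ± 0.08. The last value turned to -0.03 with quantile normalization. Series 42 held the highest level, from 11.85 to 12.23, and series 19 the lowest, from 10.00 to 10.70, with no overlap between them. Series 34 joined the top, with 11.54, 11.01, 11.68, 11.98 and 12.46 from transplant 1 to transplant 5, against 11.29 in its primary tumor. Of the variance of S100a10, 77.9% lay between lines and 4.15% between generations.

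Lines also differed in the course of S100a10 over transplants 1 to 5 (limma F test of series by transplant, adjusted p = 0.0271), with slopes from -0.19 per transplant in series 33 to 0.28 in series 34. It was the 1 of 6 tested members called in this comparison, where 24.3% of all genes were called. The call was lost without series 33, 34 or 25L (limma adjusted p = 0.122, 0.136 and 0.0566) and over transplants 1 to 4 alone (0.135). For S100a4, with slopes from -0.30 in series 33 to 1.09 in series 34, the limma adjusted p was 0.0610. It passed over transplants 1 to 4 alone (0.0201) and without series 13 or 36 (0.0331 and 0.0367), but was 0.211 without series 25L.

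The genes with the closest patterns to S100a10 included Anxa2, its binding partner (r = 0.83), and Lmna, the nuclear lamin A/C gene (0.84). With line and generation means removed these were 0.43 and 0.70. S100a4 and S100a10 had r = 0.67, and 0.54 without series 42. S100a11, an S100 protein that binds annexin A1, read between 11.51 and 12.67 on all arrays, and its SD stood at only the 23.2nd percentile of all genes, against the 99.8th for S100a4 and the 99.5th for S100a9. Its difference was -0.02 ± 0.08 (SE) at transplant 5 and 0.01 ± 0.06 over all transplants, and the second value turned to -0.03 with quantile normalization. The slopes over transplants 1 to 4 were 0.01 ± 0.03 (SE) for S100a10 and 0.02 ± 0.02 for S100a11, with 95% intervals of -0.06 to 0.07 and -0.02 to 0.06 (limma adjusted p = 0.947 and 0.695).

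S100b, known from glia, melanocytes and adipocytes, peaked in the middle generations of a few lines. At transplant 3 it reached 9.69 in series 25L, 8.64 in 33, 8.42 in 17, 8.27 in 13 and 8.09 in 34, and series 33 read 8.98 at transplant 2. The primary tumors ranged from 5.31 to 7.57, with a median of 6.39. The difference from primary was 0.85 ± 0.31 (SE) at transplant 3, 0.15 ± 0.32 at transplant 5 and 0.40 ± 0.24 over all transplants, where 7 of 11 lines were higher. Series 42 was at the floor in all 5 transplants, with 6.39 in its primary tumor. The slope over transplants 1 to 4 was 0.07 ± 0.09 (SE), with a 95% interval of -0.12 to 0.25 (limma adjusted p = 0.774).

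The genes most like S100b were Gpd1 (r = 0.69), the glycerol-3-phosphate dehydrogenase of fat tissue and muscle, Ncald (0.66), another calcium sensor, Aqp5 (0.63), a water channel of glands, Tgfb2 (0.63), a growth factor, and Cbx6 (0.62), a Polycomb protein. Without series 42 these were 0.66, 0.54, 0.52, 0.49 and 0.50. The mean of 13 adipocyte genes had r = 0.45 with S100b, and 0.44 with line and generation means removed. The mean of 12 glial genes had r = 0.38, and -0.05 after that removal, and the mean of 15 basal and myoepithelial genes had r = 0.52, and 0.17 after it.

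All 6 tested members differed among lines with generation held, against 83.5% of all genes. The adjusted p by limma's F test ran from 1.89e-13 for S100a10 and 1.11e-07 for S100a4 to 0.0319 for S100a6, and it was 0.00491 for S100a8 without the filter. The S100a6 call was lost without series 17, 32 or 34 (limma adjusted p = 0.0873, 0.135 and 0.113), without rescaling of the arrays (0.213) and with quantile normalization (0.163). Between lines lay 52.4% of the variance of S100a4, 50.4% of that of S100a9, 48.2% of that of S100b and 26.9% of that of S100a6.

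Other S100 genes on the array included 2 that ran against S100a4. S100a14 is an S100 gene of epithelial cells and S100a16 a more widely expressed member, and each had r = -0.74 with S100a4. S100a16 averaged 9.40 ± 0.97 (SD, n = 10 tumors) at transplant 5 and 10.36 ± 0.66 (SD, n = 11) in primary tumors, lower in 10 of 10 lines. It fell by 0.94 ± 0.20 (SE; limma adjusted p = 0.00195) at transplant 5 and by 0.57 ± 0.15 over all transplants (limma adjusted p = 0.0127). Its slope over transplants 1 to 4 was -0.24 ± 0.05 (SE; limma adjusted p = 0.0474), downward in 10 of 11 lines, a call lost in 15 of 25 other settings, among them those without series 10, 13, 17, 32, 34, 36, 42 or 25R (limma adjusted p = 0.0511 to 0.214). With 1 value per series the adjusted p was 0.0724 at transplant 5 and 0.0999 over all transplants, and with the Gapdh ratio as a covariate the call over all transplants was lost (0.0570).

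S100a14 has 2 probe sets, of which only the brighter is reported here. By that probe set S100a14 lost its signal in single lines. It read 10.05, 10.13, 6.76, 5.31 and 5.31 from transplant 1 to transplant 5 of series 32, against 10.92 in the primary tumor, and 10.53, 10.58 and then the floor 3 times in series 34, against 11.07 in the primary tumor. In series 42 it was at 5.31 or 5.32 in all 6 tumors. Its slope differed among lines (limma adjusted p = 0.000332), as did that of S100a16 (0.000388), while its mean difference at transplant 5, -0.84 ± 0.53 (SE), did not pass (limma adjusted p = 0.289). S100a4 was at 12.21 to 13.01 in these tumors, transplants 3 to 5 of series 32 and 34 and all of series 42, and Epcam was at 9.17 or below. S100a13, which takes part in the release of proteins without a signal peptide, had r = 0.65 with S100a4 and was at 7.40 ± 0.58 (SD, n = 10) at transplant 5 and 6.91 ± 0.40 (SD, n = 11) in primary tumors (difference 0.46 ± 0.17 SE, limma adjusted p = 0.0588). S100a1 and S100a3 differed by -0.13 ± 0.14 and -0.13 ± 0.11 (SE) at transplant 5. Of the list of 14 other family genes 8 had a probe set and 5 were tested, with 0 up and 1 down both at transplant 5 and over all transplants, where 14.1% and 9.5% of all genes were called. By direction these backgrounds were 7.37% up and 6.72% down at transplant 5, and 4.44% up and 5.06% down over all transplants.

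Among receptors and binding partners of S100 proteins, calls went both ways. Of 33 listed genes 23 were tested, with 2 up and 2 down at transplant 5, where 7.37% and 6.72% of all genes were called, and the median difference was 0.05, against 0.02 over all genes. Cd14, a co-receptor of Tlr4, fell by 0.90 ± 0.25 (SE; limma adjusted p = 0.0133) and the annexin gene Anxa11 by 0.26 ± 0.09 (0.0367). Plat, the tissue plasminogen activator gene, rose by 0.76 ± 0.26 (0.0383) and the listed gene Ndrg1, which responds to stress, by 0.99 ± 0.31 (0.0289). Over all transplants Ndrg1 alone passed, at 0.81 ± 0.24 (limma adjusted p = 0.0228). With 1 value per series none of these 4 passed at transplant 5 (limma adjusted p = 0.0543 to 0.118), and the Cd14 call was also lost without series 32 (0.0533), the Plat call without series 17, 19, 32, 33, 36 or 25R (0.0600 to 0.145), the Ndrg1 call without series 13, 17 or 33 (0.0512 to 0.119) and the Anxa11 call without series 17, 32, 33, 34, 36, 42 or 25R (0.0614 to 0.107). Anxa11 also lost it without the primary tumor of series 36 (0.0519). Over all transplants Ndrg1 lost its call without series 13, 17, 33 or 25R (0.0561 to 0.120) and without the series block (0.265). It was lost too with 1 value per series (0.175), with array weights (0.153) and with the Gapdh covariate (0.0697). The receptor genes Ager and Tlr4 differed by 0.03 ± 0.09 and -0.10 ± 0.13 (SE). Some partners that did not pass in either contrast tracked S100a4, among them Anxa5 (r = 0.79), Ppfibp1, or liprin-beta 1, which binds S100A4 (0.77), the urokinase gene Plau (0.70) and its receptor gene Plaur (0.75, below the filter).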

How the data were processed

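Total RNA of frozen tumors was hybridised to Affymetrix arrays, per the labels. The deposited table holds 1 linear intensity per probe set and array (1 to 12011); the labels do not say how the authors summarised or scaled the probes. Each array was scaled to the median of 162 over 15866 non-control probe sets, values under the pooled 10th percentile (39.8) were set to it, log2 was taken, and the lowest 25% of probe sets were left out of the tests. A gene was read from its brightest probe set, named by the platform annotation and updated through RefSeq (GRCr8).

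Tests used limma 3.58.1 in R 4.3.3 (lmFit and eBayes, two-sided, Benjamini-Hochberg over 8499 genes, threshold 0.05), with series as a block, since the design text describes lines passed from a first tumor. Deviations were shared within a series: mean r was 0.38 within and -0.04 between series, and 50 of 65 arrays were closest to one of their own series. The fit takes tumors of a line as independent beyond the line's mean. With 1 tumor per line and generation, its p-values rest on the scatter of single tumors with line means removed. For the differences from primary and the slope, fits with 1 value per series rest on the spread between lines, and they called fewer genes (below). The fits were tested on simulated data. The number of arrays limits the precision. The members, gene lists and tests were chosen with earlier results of these data known.

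Named genes were all members, the 5 tested genes with the highest r for S100a4, S100a6, S100a8, S100a9 and S100b, other S100 and partner genes past a slope threshold or among the 6 largest differences from primary, and up to 4 examples per marker list. Genes outside this rule (other partners past the threshold at transplant 5, Anxa2, Lmna, Ager, Tlr4, Ppfibp1, Plaur, Epcam, Mmp9, Cxcl1 and Lcn2) were named after their values were seen. Alternatives changed the block, scaling, floor, filter, probe set rule, weights, covariate and series left out. Values without the primary tumor of series 36 or the dim array were added after seeing the data.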

Additional observations from a re-analysis of the deposited data

Results flagged for a closer look

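The slope over transplants 1 to 5 differed among lines for 1 member and 5 related genes by limma's F test. These were S100a10 (adjusted p = 0.0271), S100a14 (0.000332), S100a16 (0.000388), Myd88 (0.00148), the adaptor of Toll-like receptors, Anxa5 (0.0426), an annexin, and Iqgap1 (0.0363), a scaffold protein that binds S100 proteins. At 24.3% of all genes such a call was common in these arrays. S100a14 and S100a16 kept their calls in 23 of 23 other settings. The Myd88 call was lost without series 32 (limma adjusted p = 0.138) and without rescaling (0.0984). The Anxa5 call was lost without series 32, 33 or 25L (0.0507 to 0.238). The Iqgap1 call was lost without series 10, 36, 42 or 25L (0.0532 to 0.144) and over transplants 1 to 4 alone (0.292). Anxa5 and Iqgap1 also lost their calls with quantile normalization (0.0700 and 0.0957) and with 25L and 25R averaged (0.0967 and 0.122).

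Among the 35 genes examined, 3 had a transplant 5 tumor far from the other 9. Myd88 read 9.89 in series 32, with the nearest other tumor at 9.25. Capzb, an actin-capping subunit, read 11.85 in the same tumor, with the nearest at 11.19. That tumor was also the dimmest array, with a median of 96.1 before scaling. Plat read 6.38 in series 42, with the nearest at 8.35. Chance flags about 1 in 20 groups. The share over all genes was not counted, so 3 of 35 is not read as a result about these genes.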

How the results depend on the processing

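For the members' tests, 400 values under other settings kept their direction and their side of the threshold, 9 newly passed it, 11 no longer did and 6, all slopes, changed sign. Of 344 values of the untested differences from primary, 14 changed sign: 8 for S100a11, 3 for S100a10, 2 for S100a8 and 1 for S100b. The slope of S100a10 over transplants 1 to 4 reversed with quantile normalization (-0.0097) and ranged from -0.0121 to 0.0379 as single series were left out. That of S100a6 (0.0357) and S100b (-0.0274) reversed over transplants 1 to 5; the cause was not tested. Array weights brought S100a4, S100a6 and S100b past the threshold for differences among series in slope (limma adjusted p = 0.0100, 0.0004 and 0.0113) and ended the S100a6 call among series (0.297). S100a8 minus primary turned to -0.11 with array weights and to -0.04 with a covariate for RNA quality (the log2 ratio of the Gapdh 3' and 5' probe sets). That ratio had r = 0.40 with S100a8 and 0.35 with S100a9, and it was highest in the primary tumor of series 36; its part was not tested.

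The series block mattered for counts over all genes: without it 85 genes were called for transplants minus primary, 37 for transplant 5 minus primary and 0 for slope over transplants 1 to 4, against 807, 1197 and 14 with it. With 1 value per series the counts were 135, 133 and 0. Array weights gave 331 and 307, and 5596 for differences among series in slope, against 2067. The Gapdh covariate gave 407 for transplants minus primary and 6 for the slope. The slope count was 42 with quantile normalization, 9 with the mean of probe sets, 70 with series 25L and 25R averaged (1294 for differences in slope) and 560 over transplants 1 to 5. Leaving out single series gave 488 to 824, 764 to 1269, 0 to 555 and 845 to 2300 genes for the mean of transplants, transplant 5, the slope and the differences in slope. The lowest counts came without series 17 for the first 2, without 32, 34 or 25R for the slope and without 25L for the differences in slope, and the highest slope counts without 25L (555) and 33 (254). Without rescaling 16.7% of transplant 5 calls were up, against 52.3%, and the median of all genes was -0.09, against 0.02; for all transplants 28.7% were up, against 46.7%. Readings at the floor limit S100a8 most, with 35 of 65 arrays there.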
